A study of Mus musculus with 7 samples.

Results

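The oxytocin and vasopressin system was represented by 4 genes, the oxytocin receptor gene Oxtr, the vasopressin 1a receptor gene Avpr1a, and the genes of the peptides themselves, Oxt and Avp. They were taken by symbol from the gene column of each library, which gave all 4 of 4 among 48321 gene symbols, and all 4 passed the filter on low counts. Tissue was the ventrolateral ventromedial hypothalamus (VMHvl), dissected by hand from 7 female mice of mixed background with 129/Sv lineage, derived from a floxed Esr1 line. Every mouse was ovariectomized, which removes the main source of circulating estrogen. One group received 1 µg of estradiol benzoate (EB), an ester of estradiol, by subcutaneous injection (4 mice), and the other received vehicle (3 mice). Tissue was taken 4 hours later from both groups, and each library is a single mouse, so the spread given here holds variation of dissection and library preparation as well as of the animals. No source used here gives their ages.

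Oxytocin and vasopressin are short peptides cut from larger precursors that also hold a carrier protein called neurophysin. Most hypothalamic oxytocin and vasopressin is made by large neurons of the paraventricular and supraoptic nuclei, and vasopressin also by the suprachiasmatic nucleus, all of them outside the VMHvl. Their receptors are G-protein-coupled: Oxtr and Avpr1a act mainly through Gq proteins, phospholipase C and release of calcium. VMHvl neurons with estrogen receptor alpha take part in female sexual behaviour, aggression and energy use, and Oxtr is among the receptors these neurons carry. In the rat ventromedial hypothalamus, estrogen treatment over days is known to raise oxytocin receptor levels.

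The peptide genes are close relatives, and their sequences show how alike they are. The stretches that encode the 9 residues of each hormone are printed 5′ to 3′ from GENCODE transcripts, with capitals at the bases that differ between the genes.
Oxt: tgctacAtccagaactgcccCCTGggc
Avp: tgctacTtccagaactgcccAAGAggc
Of these 27 bases 22 are identical and 5 differ. The Oxt stretch lies in exon 1 at chr2:130576267-130576293 on the plus strand, and the Avp stretch in exon 1 at chr2:130582446-130582472 on the minus strand (GRCm38). Further along, the coding sequences share an unbroken run of 127 bases, printed here because a read inside it cannot be told to come from either gene.
Run shared by Oxt and Avp: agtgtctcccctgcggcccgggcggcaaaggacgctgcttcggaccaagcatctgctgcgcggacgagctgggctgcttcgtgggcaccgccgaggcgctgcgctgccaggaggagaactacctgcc
The run covers coding bases 119 to 245 of Oxt and 131 to 257 of Avp, across the junction of exon 1 and 2 in each. Of the 488 different stretches of 50 bases in the Oxt transcript, 78 (15.98%) also occur in Avp. No such stretch of the Oxtr or Avpr1a transcripts (4739 and 2621 of them) occurred in a transcript of another gene on either strand, so the receptor counts carry no such overlap. How the authors' counting treated reads that match both peptide genes is not given by any source used here, so the division of reads between Oxt and Avp is uncertain within that run.

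The genes lie at 3 places in the genome. Oxtr spans chr6:112473683-112489943 on the minus strand, and Avpr1a chr10:122448499-122453452 on the plus strand. Oxt (chr2:130576173-130577054, plus strand) and Avp (chr2:130580620-130582554, minus strand) are neighbours whose 3′ ends face each other across 3565 bases. The antisense gene Gm48877 spans Avpr1a on the other strand and has no row of its own in the count tables. The use of strand in counting is not given, so any RNA of Gm48877 over the Avpr1a exons could not be told apart from Avpr1a.

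Upstream of the genes, half-sites of the estrogen response element were searched, since the treatment was an estrogen. The half-site is TGACC, or GGTCA on the other strand, and it is also the half-site of other nuclear receptors. In the 250 bases before each RefSeq transcription start (GRCm38.p6), Oxt held 5 half-sites, Oxtr 1, Avpr1a 0 and Avp 0. Of 27025 mouse promoters, 34.9% held at least 1 half-site in a window of that length and 0.0370%, or 10 promoters, held at least 5. The full palindrome GGTCANNNTGACC was in none of the 4 and in 17 of the 27025. The peptide genes' upstream sequences are printed because the neighbours differ most in this count, with half-sites in capitals on the gene's own strand.
Oxt, chr2:130575919-130576168, plus strand: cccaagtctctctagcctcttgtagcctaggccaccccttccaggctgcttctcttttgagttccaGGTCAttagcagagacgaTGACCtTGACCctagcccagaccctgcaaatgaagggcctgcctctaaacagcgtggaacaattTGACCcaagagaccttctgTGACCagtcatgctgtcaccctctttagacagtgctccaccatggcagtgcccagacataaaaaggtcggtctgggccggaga
Avp, chr2:130582589-130582838, minus strand: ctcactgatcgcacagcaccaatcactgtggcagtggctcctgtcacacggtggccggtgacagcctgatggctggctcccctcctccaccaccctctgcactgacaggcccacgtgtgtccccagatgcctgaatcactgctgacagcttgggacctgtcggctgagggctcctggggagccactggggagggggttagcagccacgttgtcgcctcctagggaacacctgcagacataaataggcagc
The single Oxtr half-site is shown with 10 bases on each side. It lies before the RefSeq start but inside the GENCODE span of Oxtr given above, which begins farther upstream.
Oxtr, chr6:112489908-112489932, minus strand: aggacaggcaGGTCAgtgccagagt
In Oxt the first half-site starts 184 bases before the transcription start, and a pair of them starts 166 and 160 bases before it. These matches are letters in a window, and no binding was measured here.

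**Figure D1:**
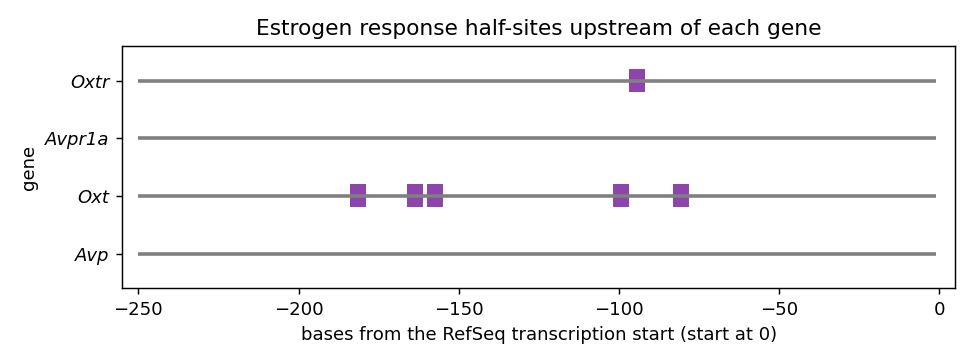
Position of each half-site (purple blocks) in the 250 bases before the RefSeq transcription start of the 4 genes, with distance from the start in bases on the horizontal axis. Oxt holds 5 half-sites, Oxtr 1, and Avpr1a and Avp 0. The Oxtr half-site lies inside the GENCODE span of that gene, which begins upstream of the RefSeq start.

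Library totals ran from 21037303 to 33302293 counts, with 23668 to 25901 genes detected. Pgr, the progesterone receptor and a textbook estrogen target, was 2.52-fold higher with EB (207 ± 17.6 CPM with EB, n = 4, and 82.2 ± 6.70 CPM with vehicle, n = 3, SD; edgeR adjusted p = 2.26e-06). CPM are counts scaled to the library total, after TMM scaling has adjusted that total for the library's composition. Markers of VMHvl neurons were present in every library, with Esr1, estrogen receptor alpha, at 192 ± 30.2 CPM with EB and 223 ± 81.6 CPM with vehicle (SD). Nr5a1, a transcription factor that defines the VMH, was low at 2.52 ± 1.11 CPM with EB and 2.03 ± 1.02 CPM with vehicle. Vehicle 1 and EB 4 stood apart in markers of other cells. Vehicle 1 had the highest summed level of 15 mural and fibroblast markers (822.6 CPM against 269 to 528 CPM in the other 6 libraries), and EB 4 the highest of 11 pituitary markers (30.0 CPM against 3.04 to 15.3 CPM).

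Among the 4 genes, Oxtr fell with EB, and Avpr1a, Oxt and Avp did not pass the test. Oxtr was at 79.9, 78.9, 77.6 and 61.9 CPM in EB 1 to 4, and at 109, 135 and 110 CPM in vehicle 1 to 3. Every EB mouse was below every vehicle mouse, with EB 4 the lowest of the EB mice and vehicle 2 the highest of the vehicle mice. Those values rest on 1504 to 2561 reads per EB library and 2505 to 4267 reads per vehicle library. The group means were 74.6 ± 8.50 CPM with EB (SD, n = 4) and 118 ± 14.7 CPM with vehicle (SD, n = 3), which is a fall of 36.9%. On the log2 scale the change was −0.66 ± 0.10 (SE), with a 95% interval from −0.89 to −0.44 (adjusted p = 0.00572 over 18387 tested genes, edgeR's quasi-likelihood test with Benjamini-Hochberg adjustment). Oxtr was thus the 1 of 4 genes called lower, where 0.207% of all tested genes were called lower and 0.952% were called in either direction. DESeq2 also called Oxtr lower and the other 3 in neither direction, where it called 0.68% of all tested genes lower and 1.27% higher, 1.95% in all. The same held for limma-voom, which called 0.19% of them lower and 0.625% higher, 0.816% in all. It was ranked 64th of all tested genes by p, and 17th by size of fall among the 38 genes called lower. Groups did not overlap for 9.1% of all tested genes.

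**Figure D2:**
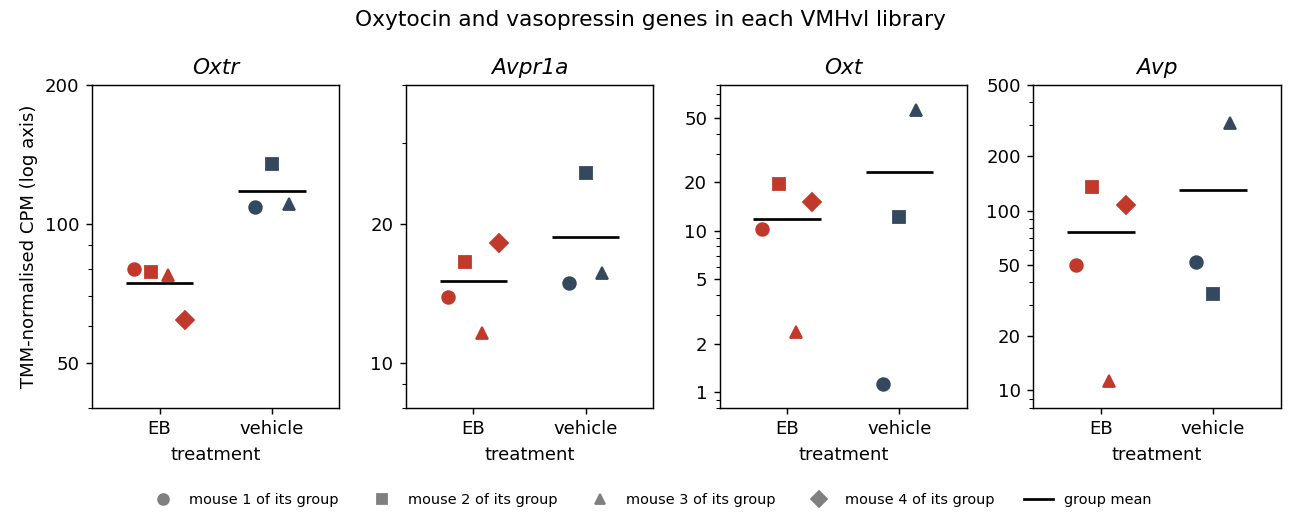
TMM-normalised CPM of Oxtr, Avpr1a, Oxt and Avp on log axes, with 1 point per mouse, EB (red) left of vehicle (dark), and the group mean as a line. Oxtr does not overlap between groups, from 61.9 to 79.9 CPM with EB and 109 to 135 CPM with vehicle, whereas the other 3 genes overlap.

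The fall of Oxtr kept its direction and its call in each of 17 alternative fits. Without EB 4 the log2 change was −0.58 (adjusted p = 0.0110), and without vehicle 2 it was −0.56 (adjusted p = 0.0197). Leaving out vehicle 1 and EB 4 together, the libraries that stood apart, gave −0.64 (adjusted p = 0.00931). In a bulk sample, fewer cells that carry the receptor and less of its RNA per cell cannot be told apart. Esr1, carried by many of the same neurons, gave a log2 change of −0.21 ± 0.25 (SE) in the same fit and was not called (adjusted p = 0.892). Summed over 15 VMHvl markers, levels were 1833 to 2147 CPM with EB and 1647 to 2239 CPM with vehicle, so that the groups overlapped. That sum holds estimates of both signs: 4 of the 15 were called higher by edgeR and 0 lower, and 9 had an unadjusted p under 0.05 (6 positive, 3 negative), against 9.04% of all tested genes. The 3 negative ones were Rprm (log2 −0.74), Gpr83 (−0.29) and Adcyap1 (−0.24), with edgeR adjusted p from 0.169 to 0.537. Because the sum holds genes that rose with EB, its overlap cannot gauge the number of VMHvl cells, which was not tested. Vehicle 2 had the highest of these sums as well as the highest Oxtr and Avpr1a.

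Markers of other cell types are given beside this fall. Endothelial markers had negative log2 changes in 12 of 14 genes (median −0.41, against −0.01 for all tested genes). Of the 14, 0 were called by edgeR, 2 by DESeq2 (Flt1 and Abcb1a, both lower) and 0 by limma-voom, where DESeq2 called 0.68% of all tested genes lower. An unadjusted edgeR p under 0.05 was held by 7 of them, against 9.04% of all tested genes. Among these 7, Kdr was positive (log2 change 0.49). Their summed level was 104 to 138 CPM with EB and 122 to 185 CPM with vehicle. All 11 astrocyte markers had negative estimates (median −0.12), and so had all 15 mural and fibroblast markers (median −0.24), with 0 called in either list by each of the 3 tools and 0 with an unadjusted edgeR p under 0.05. No listed marker of these types was at 0 in every library, and their part in the fall of Oxtr was not tested. Markers of the amygdala, striatum and cortex, regions that also hold Oxtr, were at a summed 191 to 205 CPM with EB and 192 to 230 CPM with vehicle (median log2 change −0.16, 0 of 10 tested genes called by each of these tools, edgeR among them, and 0 with an unadjusted p under 0.05).

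Avpr1a, the receptor through which vasopressin acts in much of the brain, gave no call. It stood at 13.9, 16.5, 11.6 and 18.2 CPM in EB 1 to 4, and at 14.9, 25.8 and 15.6 CPM in vehicle 1 to 3. Vehicle 2 was far above the other vehicle mice, which lay within the range of the EB mice. Group means were 15.1 ± 2.89 CPM with EB (SD, n = 4) and 18.8 ± 6.07 CPM with vehicle (SD, n = 3). The log2 change was −0.33 ± 0.20 (SE), and its 95% interval from −0.76 to 0.11 holds both a fall larger than the estimate for Oxtr and no change (edgeR adjusted p = 0.706). Without vehicle 2 the estimate was −0.02 (adjusted p = 0.991).

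Whether the receptors responded differently was tested by their ratio within each library. Oxtr CPM over Avpr1a CPM was 5.74, 4.78, 6.68 and 3.40 in EB 1 to 4, and 7.30, 5.24 and 7.06 in vehicle 1 to 3. The ratio averaged 5.15 ± 1.399 with EB and 6.53 ± 1.13 with vehicle (SD), and the groups overlapped (two-sided exact permutation p = 0.200 over 35 splits, where the smallest possible p is 0.0286). A larger fall of Oxtr than of Avpr1a was therefore not shown. The kidney-type and pituitary-type vasopressin receptors, Avpr2 and Avpr1b, were near the limit of detection and were not tested. Each had 0 to 4 reads per EB library and 0 reads in every vehicle library.

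**Figure D3:**
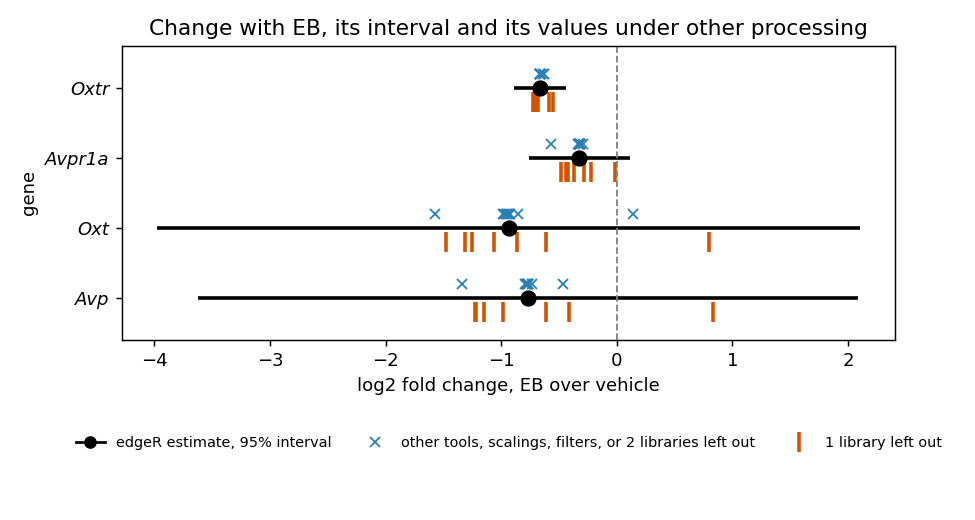
Log2 fold change of EB over vehicle for each gene, with the edgeR estimate and its 95% interval (black), values under other tools, scalings, filters or with 2 libraries left out (blue crosses), and values with 1 library left out (orange ticks). Oxtr lies between −0.72 and −0.56 in every alternative, while Oxt and Avp cross 0 when vehicle 3 is left out, and Oxt also by limma-voom.

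The peptide transcripts varied between mice far more than the receptors did. Oxt was at 10.2, 19.6, 2.36 and 15.1 CPM in EB 1 to 4, and at 1.13, 12.2 and 56.3 CPM in vehicle 1 to 3. The vehicle mice alone thus spanned a 49.96-fold range, from 29 reads in vehicle 1 to 1279 reads in vehicle 3. Avp was at 50.02, 136, 11.3 and 108 CPM in EB 1 to 4, and at 51.5, 34.5 and 306 CPM in vehicle 1 to 3. Its range over all 7 libraries was 27.1-fold, with EB 3 lowest and vehicle 3 highest. For Oxtr and Avpr1a the same range was 2.18-fold and 2.22-fold.

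Set against genes of like level, both peptide genes stood at the top for spread. The standard deviation of log2 CPM within groups was 1.89 for Oxt, and 99.96% of the 2679 genes with a mean CPM within 1.5-fold of that of Oxt had a smaller one. For Avp it was 1.62, and 99.94% of 1686 such genes had a smaller one. It was 0.17 for Oxtr, above 89.0% of 1761 genes, and 0.34 for Avpr1a, above 93.8% of 2679 genes. The median of such genes was 0.18 beside Oxt and 0.10 beside Avp.

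With that spread, no effect of EB on the peptide genes was detectable. Oxt averaged 11.8 ± 7.38 CPM with EB (SD, n = 4) and 23.2 ± 29.2 CPM with vehicle (SD, n = 3), a log2 change of −0.94 ± 1.20 (SE; edgeR adjusted p = 0.906). Avp averaged 76.2 ± 56.1 CPM with EB and 131 ± 152 CPM with vehicle (SD), a log2 change of −0.77 ± 1.12 (SE; edgeR adjusted p = 0.922). The 95% intervals ran from −3.97 to 2.10 for Oxt and from −3.62 to 2.08 for Avp, so that a 4-fold change in either direction lies inside both. Without vehicle 3 both changes were positive, 0.80 for Oxt and 0.83 for Avp (adjusted p = 0.893 and 0.883), and limma-voom gave 0.14 for Oxt (adjusted p = 0.984).

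Libraries with much Avp mostly had much Oxt. In 5 of the 7 libraries Oxt made up 12.3% to 17.3% of the reads of both genes, and the other two were both vehicle. Vehicle 1 had 2.14% (29 of 1353 reads, exact 95% interval 1.44% to 3.06%), and vehicle 2 had 26.1% (384 of 1473 reads, 23.8% to 28.4%). These intervals cover counting error only. The share averaged 14.8% ± 2.71 with EB and 14.6% ± 11.99 with vehicle (SD), with a two-sided exact permutation p of 1 over 35 splits.

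Over the 7 libraries, log2 levels of Oxt and Avp gave a Pearson r of 0.77 (exact permutation p = 0.0423, adjusted p = 0.338 over 8 pairs) and a Spearman rho of 0.75 (exact permutation p = 0.0663, adjusted p = 0.352). Without vehicle 1 and vehicle 3, the libraries farthest from the median of Oxt, r was 0.93. The other 7 pairs gave r from −0.67 to 0.47, with adjusted p from 0.400 to 0.983. The pair of Oxtr and Avpr1a gave r = 0.47 (exact permutation p = 0.292, adjusted p = 0.778), and −0.32 without vehicle 2 and vehicle 3.

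**Figure D4:**
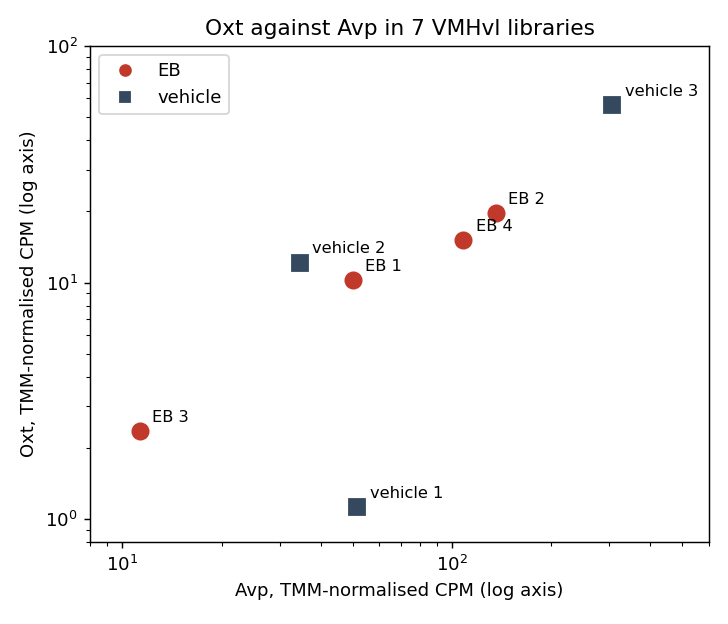
Oxt against Avp, both in TMM-normalised CPM on log axes, with 1 point per library (EB red circles, vehicle dark squares). Vehicle 3 is highest in both genes, and vehicle 1 is lowest in Oxt at 1.13 CPM beside an Avp level of 51.5 CPM.

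Neurons known to make the peptides were looked for by their markers. Sim1, a transcription factor of paraventricular and supraoptic neurons, was at 2.77 ± 1.49 CPM with EB and 4.997 ± 4.20 CPM with vehicle (SD). Its SD with vehicle was thus nearly as large as its mean. Otp, which these neurons also need, was at 53.1 ± 3.90 CPM with EB and 48.7 ± 16.0 CPM with vehicle (SD). Of 12 tested markers of these nuclei 0 were called by edgeR or limma-voom and 1 by DESeq2 (Pou3f2, lower, against 0.68% of all tested genes). An unadjusted edgeR p under 0.05 was held by 1 of the 12, against 9.04% of all tested genes. The summed level of these markers was 1374 to 1516 CPM with EB and 1410 to 1587 CPM with vehicle. It was set mostly by Calb1 and Nos1, which other neurons also carry. Fezf1 and Pdyn, which are in this list, are also among the VMHvl markers, so the sum is not particular to these nuclei. Across libraries that sum gave r = −0.67 with Avp (exact permutation p = 0.100, adjusted p = 0.400) and −0.20 with Oxt (exact permutation p = 0.676, adjusted p = 0.901). Of 9 tested suprachiasmatic markers 0 were called by edgeR or limma-voom and 1 by DESeq2 (Rorb, lower, against 0.68% of all tested genes). An unadjusted edgeR p under 0.05 was held by 2 of these suprachiasmatic markers, against 9.04% of all tested genes. Vip, the peptide of that nucleus, was at 0.922 CPM with EB and 0.808 CPM with vehicle. Prok2, also of that nucleus, did not pass the filter. The part of neighbouring nuclei in the spread of Oxt and Avp was not tested beyond these values.

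Levels of the 4 genes can be set side by side per length of transcript. In CPM per kilobase of annotated exon, Avp was highest in both groups, at 132 ± 97.2 with EB and 226 ± 264 with vehicle (SD). Oxt came next at 22.0 ± 13.7 with EB and 43.2 ± 54.4 with vehicle, then Oxtr at 15.6 ± 1.77 with EB and 24.7 ± 3.08 with vehicle. Avpr1a was last at 5.64 ± 1.08 with EB and 7.03 ± 2.27 with vehicle. Oxtr was above Avpr1a in all 7 libraries, and Avp above Oxt in all 7, whereas Oxt ranged on both sides of Oxtr, from 2.10 CPM per kilobase in vehicle 1 to 105 in vehicle 3.

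Beyond the receptors, 2 regulators of Gq signalling rose with EB. Rgs2 and Rgs4 encode proteins that speed the shut-off of active G proteins, among them Gq. Rgs4 was at 107 ± 13.5 CPM with EB and 49.7 ± 4.33 CPM with vehicle (SD), a log2 change of 1.10 ± 0.10 (SE; edgeR adjusted p = 0.000102). Rgs2 was at 321 ± 45.0 CPM with EB and 187 ± 27.3 CPM with vehicle (SD), a log2 change of 0.78 ± 0.11 (SE; edgeR adjusted p = 0.00571). Both were called in all 17 alternative fits. Of 30 tested genes of the Gq pathway list these 2 were called higher and 0 lower, beside 0.745% of all tested genes called higher. The list held G-protein subunits (of the Gq, Gi and Go types), phospholipases C, IP3 receptors, protein kinases C, arrestins and receptor kinases. Camk2a, Camk4 and Eef2k were also in it. It was chosen with earlier results of these data known, and its median log2 change was 0.03. The other 28 were not called. They ran from −0.25 ± 0.15 (SE) for Grk5, a kinase that phosphorylates active receptors (adjusted p = 0.682), to 0.37 ± 0.44 (SE) for the phospholipase gene Plcb2 (adjusted p = 0.886). Plcb2 was low, at 1.16 CPM with EB and 0.929 CPM with vehicle. Gnaq, which encodes the Gq subunit itself, was at 0.05 ± 0.06 (SE) on the same scale.

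Genes that make, store and break down the peptides gave no call. Of 13 tested, 0 were called by edgeR, DESeq2 or limma-voom, 2 had an unadjusted p under 0.05, and the median log2 change was −0.04. The highest and lowest estimates were 0.16 ± 0.07 (SE) for Scg2, a secretory granule protein (adjusted p = 0.480), and −0.20 ± 0.18 (SE) for Cd38, an enzyme needed in mice for oxytocin release (adjusted p = 0.830). Lnpep, the aminopeptidase that degrades oxytocin, was at −0.04 ± 0.06, and Pam, which amidates the peptides' ends, at 0.02 ± 0.09 (log2 change ± SE).

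**Figure D5:**
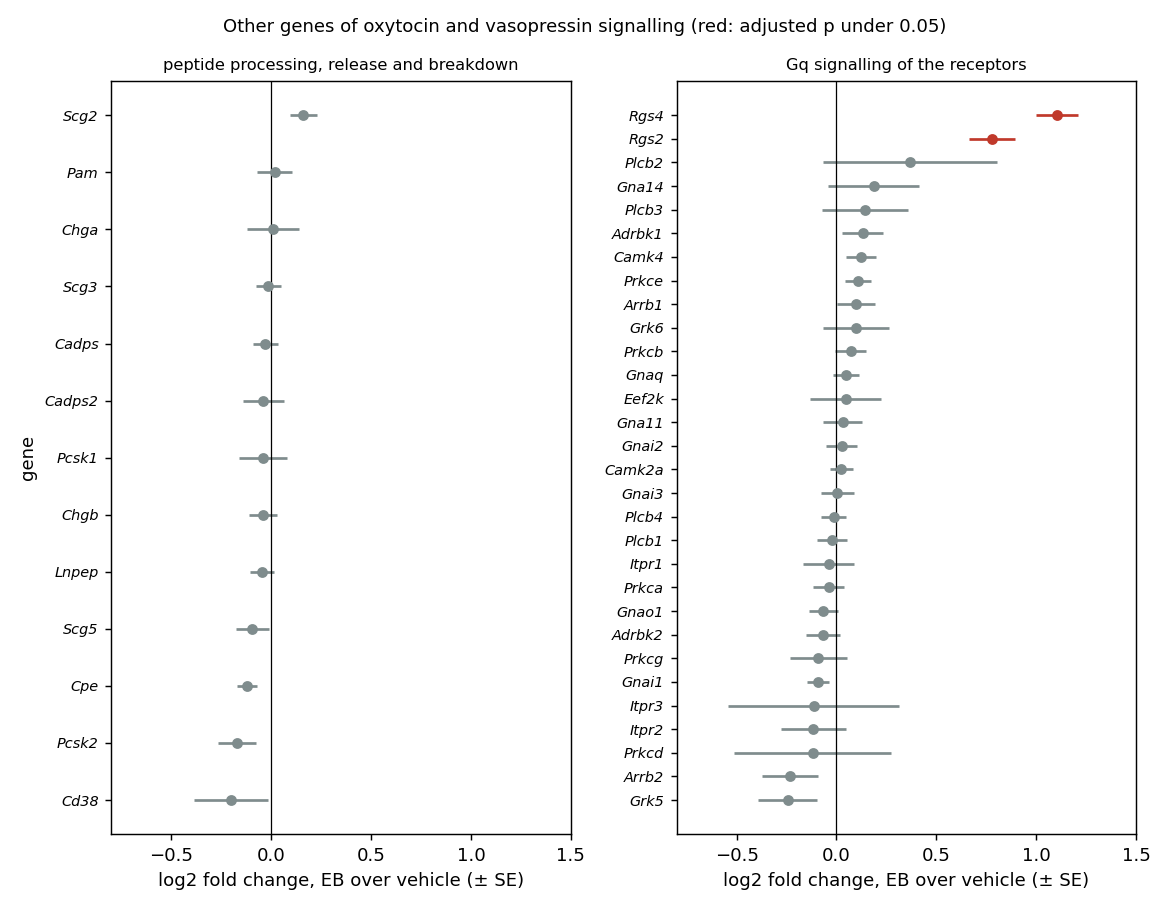
Log2 fold change of EB over vehicle with its SE for 13 genes of peptide processing, release and breakdown (left) and 30 genes of Gq signalling (right), ordered by size. Rgs4 at 1.10 and Rgs2 at 0.78 are the genes past an adjusted p of 0.05 (red).

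The genes whose levels followed Oxtr most closely were ranked by Pearson r of log2 CPM over the 7 libraries, among 10327 genes. Slitrk4, a leucine-rich repeat membrane protein of neurons, was first (r = 0.99), followed by Wscd2, Slitrk5, a relative of Slitrk4, Acvr2a, an activin receptor, and Socs5, a suppressor of cytokine signalling, the last 4 at r = 0.98 to 0.99. Slitrk4 was at 146 CPM with EB and 242 CPM with vehicle, and it was also called lower (log2 −0.73, edgeR adjusted p = 0.00202), as was Acvr2a (−0.31, adjusted p = 0.0466). These calls are not independent of the ranking, since Oxtr itself differed between the groups. Acvr2a lost its call with any 1 library left out (adjusted p from 0.0769 to 0.125), without vehicle 1 and EB 4 together (0.208), and when scaled by library size alone (0.782). The genes that ran most opposite to Oxtr were Cstf1, Suox and Pmpcb (r = −0.98, −0.97 and −0.97), of which Suox, the sulphite oxidase gene, was called higher (log2 0.91, adjusted p = 0.0108, and 0.0731 without vehicle 3). In all 120 of the 10327 genes had r above 0.9 with Oxtr, and these values share the treatment groups and the libraries.

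The neighbours of Oxtr on chromosome 6 gave no call. Cav3, a muscle caveolin whose annotated end lies 810 bases from Oxtr on the opposite strand, had 0 reads in each library. Rad18, the gene of a ubiquitin ligase of DNA repair, lies 129906 bases beyond the other end. It was at 31.1 ± 3.50 CPM with EB and 27.6 ± 4.37 CPM with vehicle (SD; log2 change 0.17, edgeR adjusted p = 0.778).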

How the data were processed

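The authors deposited raw counts per gene symbol for each library, whole numbers with no normalisation. Per the labels' protocols, the Tecan/NuGEN Trio kit was used on 15 ng of RNA per library. HISAT2, HTSeq, DESeq2 and the build mm10 are named in the submitters' processing notes, while versions, annotation, strand use and the handling of multiply mapped reads were not given in the sources used here. Replicate numbers name mice in the order of deposit. Pairs of libraries within a group gave a chi-square per degree of freedom from 17.0 to 166, so none were treated as duplicates.

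Genes kept by filterByExpr (minimum count 10) were scaled by TMM and tested, all 18387 together, with edgeR 4.0.16 (estimateDisp, robust glmQLFit, glmQLFTest) under R 4.3.3, without covariates. The call was set at a Benjamini-Hochberg adjusted p under 0.05. Adjusted p-values for genes are from edgeR unless another tool is named. Log2 CPM used a pseudocount of 0.5. The test was checked on simulated data. Genes outside the 4 were named if they passed the test in a listed group, had the highest or lowest change of the processing or Gq list, lay beside a member, or had the 5 highest or 3 lowest r among genes of at least 5 mean CPM that are not predicted models. Gnaq, Plcb2, Camk2a, Camk4, Eef2k, Lnpep, Pam, Esr1, Nr5a1, Rprm, Gpr83, Adcyap1 and markers of the neighbouring nuclei were named after their values were seen. The 4 genes and all lists were chosen with earlier results of these data known. Positions, exon lengths and transcripts were from GENCODE M21 (GRCm38, also named mm10), and upstream sequences of all 4 genes from RefSeq (GRCm38.p6). Alternatives were DESeq2 1.42.0, limma-voom (limma 3.58.1), 3 further scalings, 2 further filters, exclusion of 48 mitochondrial or haemoglobin genes, each library left out, and vehicle 1 and EB 4 left out together. An older quasi-likelihood option of edgeR, and alternatives for genes outside the 4, were added after seeing the data. Figures used matplotlib 3.10.9.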

Additional observations from a re-analysis of the deposited data

Results flagged for a closer look

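Oxtr in EB 4 was 61.9 CPM, while the other EB mice lay between 77.6 and 79.9 CPM. The gap between EB 4 and the next mouse was 0.876 of the range of the group, above Dixon's 95% critical value of 0.829 for 4 samples. Chance gives such a gap in about 1 of 20 groups. Without EB 4 the log2 change of Oxtr was −0.58 (edgeR adjusted p = 0.0110). EB 4 was also the library with the highest summed pituitary markers, at 30.0 CPM.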

How the results depend on the processing

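Oxtr kept its direction and its call in all 17 alternatives, with log2 changes from −0.72 to −0.56 and adjusted p up to 0.0231. Avpr1a kept a negative estimate without a call in all 17, from −0.57 to −0.02. Oxt reversed to 0.14 by limma-voom (adjusted p = 0.984), and with each library left out it ran from −1.47 to 0.80. Avp ran from −1.23 to 0.83 with each library left out. Both turned positive without vehicle 3, and neither was called in any alternative. The difference in Oxt share of the reads of both genes (EB minus vehicle) was 0.202 percentage points. It ran from −6.02 to 5.94 with each library left out and was −5.18 without vehicle 1 and EB 4 together. Genes called over all tested numbered 175, against 359 by DESeq2, 375 with no filter, and 102 (without vehicle 3) to 152 (without vehicle 1) with each library left out. The causes of these shifts were not tested. No paired analysis was made, because each mouse received a single treatment and the labels match no EB mouse to a vehicle mouse. Each library held 29 to 1279 reads of Oxt and 268 to 6950 of Avp, and the part of counting error in their spread was not tested.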

Other observations

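The genes that followed Avpr1a, Oxt and Avp most closely were not called with EB. For Avpr1a they were Fam195b, Tpm3, Ift88, Kcnt1 and Dzank1 (Pearson r from 0.97 to 0.98 over 7 libraries). For Oxt they were Bsn, a presynaptic scaffold, Gse1, St6galnac6, Cmc2 and Lzts1 (r from 0.96 to 0.98). For Avp they were Nrg1, a growth factor of the neuregulin family, Tle4, Rai2, Plcd4 and Pskh1 (r from 0.95 to 0.97). Genes with r above 0.9 numbered 64 for Avpr1a, 43 for Oxt and 25 for Avp, against 120 for Oxtr, of 10327 ranked. Genes running most opposite were Pspc1, Lrif1 and Atp5f1 for Avpr1a, Pkn2, Mtch2 and Osbpl1a for Oxt, and Sec23a, Ssr2 and Dnajc27 for Avp (r from −0.99 to −0.95).

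Of 15 VMHvl markers 4 rose with EB by edgeR (Pgr, Cckar, Mc4r and Nptx2) and 0 fell, where 0.745% of all tested genes were called higher. DESeq2 called 6 of them higher, where it called 1.27% of all tested genes higher. Their list was chosen with earlier results of these data known, so these counts are no independent test of it. Of the 15 estimates 8 were positive and 7 negative. Without any 1 vehicle library Mc4r was not called (adjusted p from 0.0529 to 0.0975), nor was Cckar without vehicle 3, EB 1, EB 3 or EB 4 (0.0624 to 0.133) or without vehicle 1 and EB 4 together (0.0822). Of 10 tested arcuate markers 1 fell by edgeR (Isl1, a transcription factor, log2 −1.18, edgeR adjusted p = 0.00249) and 2 by DESeq2 (Isl1 and Ghsr). Of all tested genes edgeR called 0.207% and DESeq2 0.68% lower. Most arcuate estimates were positive, 6 of 10, with a median log2 change of 0.16. An unadjusted edgeR p under 0.05 was held by 4 of the 10, against 9.04% of all tested genes. Pomc (0.67) and Cartpt (0.29) were higher among these 4, and Isl1 and Ghsr (−0.61) lower. Of 4 tested pituitary markers edgeR, DESeq2 and limma-voom called 0, with 0 at an unadjusted edgeR p under 0.05, against 9.04% of all tested genes.

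The nearest protein-coding genes beside the Oxt and Avp pair on chromosome 2 were not called with EB. Mrps26, a mitochondrial ribosomal protein gene 7477 bases before Oxt, was at 22.1 ± 2.19 CPM with EB and 15.9 ± 2.85 CPM with vehicle (SD; log2 change 0.48, edgeR adjusted p = 0.211). Ubox5, 7447 bases beyond Avp, was at 5.74 ± 0.631 CPM with EB and 5.36 ± 1.46 CPM with vehicle (SD; log2 change 0.10, edgeR adjusted p = 0.943). Beside Avpr1a, Rxylt1, listed in the count tables under its older symbol Tmem5, and Ppm1h had log2 changes of 0.02 and −0.07 (edgeR adjusted p = 0.974 and 0.898).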
